A study of Mus musculus with 8 samples.

Results

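N6-methyladenosine (m6A) peaks were examined on the mRNAs of the translation initiation and elongation factors in mouse embryonic stem cells (ESCs). The genes were the protein-coding genes of GENCODE vM21 (mm10) whose symbol begins with Eif or Eef followed by a digit, which gave 68 of 22028 protein-coding genes. A peak was assigned to a gene when 1 or more bases of its exon blocks lay in the exons of that gene on the same strand. By this rule 168 of the 18895 peaks in the DMSO list and 132 of the 13001 in the Dox list lay on translation factor genes. The rule for the genes uses their names and no measured value, but the gene family itself was picked with earlier results of these data known.

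All cells were of the E14 ESC line, and per the study's methods all carried a doxycycline (Dox)-inducible Dux transgene and a tdTomato reporter under the promoter of the MERVL retrotransposon. Dux is a transcription factor that drives ESCs towards a state resembling the early cleavage embryo, and the study asked how m6A changes during that transition. Cells received DMSO, the solvent control, or Dox for 24 h, and no sorting of reporter-positive cells was described for these libraries, so the Dox cells may be a mixture of states. By the labels there were 8 libraries, 2 replicates in each of 4 groups, with an IP and an input group for each treatment, where IP is the RNA pulled down with an antibody to m6A and input is the unselected RNA. Each treatment has a single deposited list of peaks, so no replicate spread exists for any value, no test between treatments was made, and the 95% Wilson intervals given with shares cover counting error only. Read depth and mRNA levels were not analysed here, and their part in any difference between the lists was not tested.

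Initiation factors bring the initiator tRNA, the small ribosomal subunit and the capped mRNA together, and elongation factors deliver aminoacyl-tRNAs and move the ribosome along the coding sequence. eIF2 carries the initiator tRNA, eIF2B reloads eIF2 with GTP, eIF3 is the large scaffold on the small subunit, and eIF4F binds the cap. m6A is placed by a methyltransferase complex, mostly in a GGAC-type sequence context, and is best known on mRNA near stop codons and in long internal exons.

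Peak sequences of translation factor mRNAs are shown first, to let the length and the motif content of shared and list-only peaks be seen. A peak was called shared when it had 1 or more bases in common with any same-strand peak of the opposite treatment, and list-only otherwise. The peaks are the best-scoring ones of at most 300 nt that lay wholly in coding sequence and had no near-identical copy elsewhere in the genome (98% identity over 90% of the peak). The score is the value deposited with a peak, taken here to be the authors' −log10 p-value, and was at least 10 in both lists. Sequences are from GRCm38 (mm10), 5′ to 3′ on the mRNA strand, with introns removed and T for U, and GGAC is in capitals. The shared peaks of the DMSO list are from Eif4h (chr5:134621996-134622045, minus strand), Eif4g1 (chr16:20674228-20675744, plus strand, 4 exon blocks), Eif3l (chr15:79078996-79081899, plus strand, 3 exon blocks) and Eif3b (chr5:140425263-140425287, plus strand).
Eif4h shared: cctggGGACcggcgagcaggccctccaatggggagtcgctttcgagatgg
Eif4g1 shared: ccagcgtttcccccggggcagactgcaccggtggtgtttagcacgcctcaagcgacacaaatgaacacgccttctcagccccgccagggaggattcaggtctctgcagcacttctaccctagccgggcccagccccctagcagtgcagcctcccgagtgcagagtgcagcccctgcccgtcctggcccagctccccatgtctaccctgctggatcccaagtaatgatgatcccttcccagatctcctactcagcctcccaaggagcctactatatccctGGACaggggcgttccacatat
Eif3l shared: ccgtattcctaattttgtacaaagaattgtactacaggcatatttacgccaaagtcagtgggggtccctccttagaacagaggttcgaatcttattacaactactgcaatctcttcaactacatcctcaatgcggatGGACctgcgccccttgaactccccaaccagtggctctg
Eif3b shared: actacttggtgatgtactcaaagat
The DMSO-only peaks are from Eif4g2 (chr7:111080960-111081526, minus strand, 2 exon blocks), Eef1a1 (chr9:78479027-78479076, minus strand), Eif3c (chr7:126547471-126547653, minus strand, 2 exon blocks) and Eif4g1 (chr16:20688566-20688733, plus strand, 2 exon blocks). At a looser cut of 95% identity over 50% of the peak, this Eef1a1 peak had 7 other loci. The Eif3c and Eif4g1 DMSO-only peaks had 1 each, so reads of these peaks could come from elsewhere.
Eif4g2 DMSO-only: gggggtgcttctcgtttcagtgctt
Eef1a1 DMSO-only: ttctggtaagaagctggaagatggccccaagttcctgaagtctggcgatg
Eif3c DMSO-only: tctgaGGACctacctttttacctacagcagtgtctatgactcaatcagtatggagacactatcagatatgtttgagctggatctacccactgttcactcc
Eif4g1 DMSO-only: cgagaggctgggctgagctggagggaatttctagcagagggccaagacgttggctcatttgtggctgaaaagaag
Only 2 Dox-only peaks met the rule, 1 from Eif3f (chr7:108934592-108934641, plus strand) and 1 from Eif2b2 (chr12:85219631-85219680, plus strand).
Eif3f Dox-only: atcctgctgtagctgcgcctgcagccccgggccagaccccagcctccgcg
Eif2b2 Dox-only: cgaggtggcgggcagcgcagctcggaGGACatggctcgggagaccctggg

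In the DMSO list 49 of the 68 genes carried a peak (72.1%, interval 60.4 to 81.3), against 27.5% of all protein-coding genes. In the Dox list 43 of the 68 genes carried a peak (63.2%, interval 51.4 to 73.7), against 22.1% of all protein-coding genes. The share among expressed genes alone was not computed. Peaks lay in both lists on 43 genes, in the DMSO list only on 6 genes, in the Dox list only on 0 genes and in neither list on 19 genes. The DMSO-only genes were 12.2% of the 49 genes with any peak (interval 5.73 to 24.2), and the same share over all genes with any peak was 21.5%. The absence of a Dox-only gene leaves an interval of 0 to 7.27%, which holds the share of 2.40% over all genes with any peak.

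The genes without a peak were spread over the functional groups. They were Eif1ax and Eif1b of start codon selection, Eif2d and Eif2s3y of initiator tRNA delivery, Eif2b4 of eIF2B, the eIF2 alpha kinase gene Eif2ak2, the eIF3 genes Eif3e, Eif3i, Eif3j2 and Eif3m, the cap-binding genes Eif4e1b and Eif4e3, the eIF4E-binding repressor gene Eif4ebp3, Eif5a2, Eef1a2, and the modifying enzymes Eef1akmt2, Eef1akmt3, Eef1akmt4 and Eef2k. Several of them are paralogues of genes that carried peaks, among them Eef1a2 beside Eef1a1, Eif5a2 beside Eif5a and Eif3j2 beside Eif3j1. For Eif3j1, 1 of 2 DMSO peaks and 2 of 3 Dox peaks had a near-identical locus in Eif3j2, so reads there could come from either gene. The median length of the main transcript, the one with the longest coding sequence, was 1836 nt for the genes without a peak, 2054 nt for the DMSO-only genes and 2556 nt for the genes with peaks in both lists.

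Fewer peaks were listed after Dox, on the translation factor mRNAs as over the transcriptome. A count of listed peaks is a different measure from the level of m6A. The study reported that level to increase after Dox, by dot blot and by peak intensity. Its peak totals also differ from those of the lists used here. The number of translation factor peaks was 1.27 times higher in the DMSO list (interval 1.01 to 1.60). Over all peaks the ratio was 1.45 (interval 1.42 to 1.49), which lay within the interval of the translation factor peaks. These intervals treat peaks as independent, although most Dox peaks overlapped a DMSO peak and many peaks shared a gene. Covered exonic bases were 31051 under DMSO and 24396 under Dox, also a ratio of 1.27, against 1.47 over all peaks. When each list was reduced to its 13001 best-scoring peaks, the ratio of translation factor peaks was 1.05. The whole lists were then equal in number by construction, so 1.05 is not comparable with the 1.45 above. The bases covered in both lists numbered 23396, which was 75.3% of the DMSO bases and 95.9% of the Dox bases.

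Of the 43 genes with peaks in both lists, 37 had more bases covered in the DMSO list (86.0%, interval 72.7 to 93.4), and this share was 85.7% over all such genes. The count was thus near its background. More bases were covered in the Dox list on 3 genes (6.98%, interval 2.40 to 18.6), against 8.08% over all genes with peaks in both lists. They were Eif4a3 (225 against 175 nt), Eif4a2 (400 against 375 nt) and Eif4ebp1 (550 against 525 nt). Eef1d, Eif3j1 and Eif4g3 had equal coverage. Since peaks were built in steps of 25 nt, the differences at Eif4a2 and Eif4ebp1 were of a single step.

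**Figure D1:**
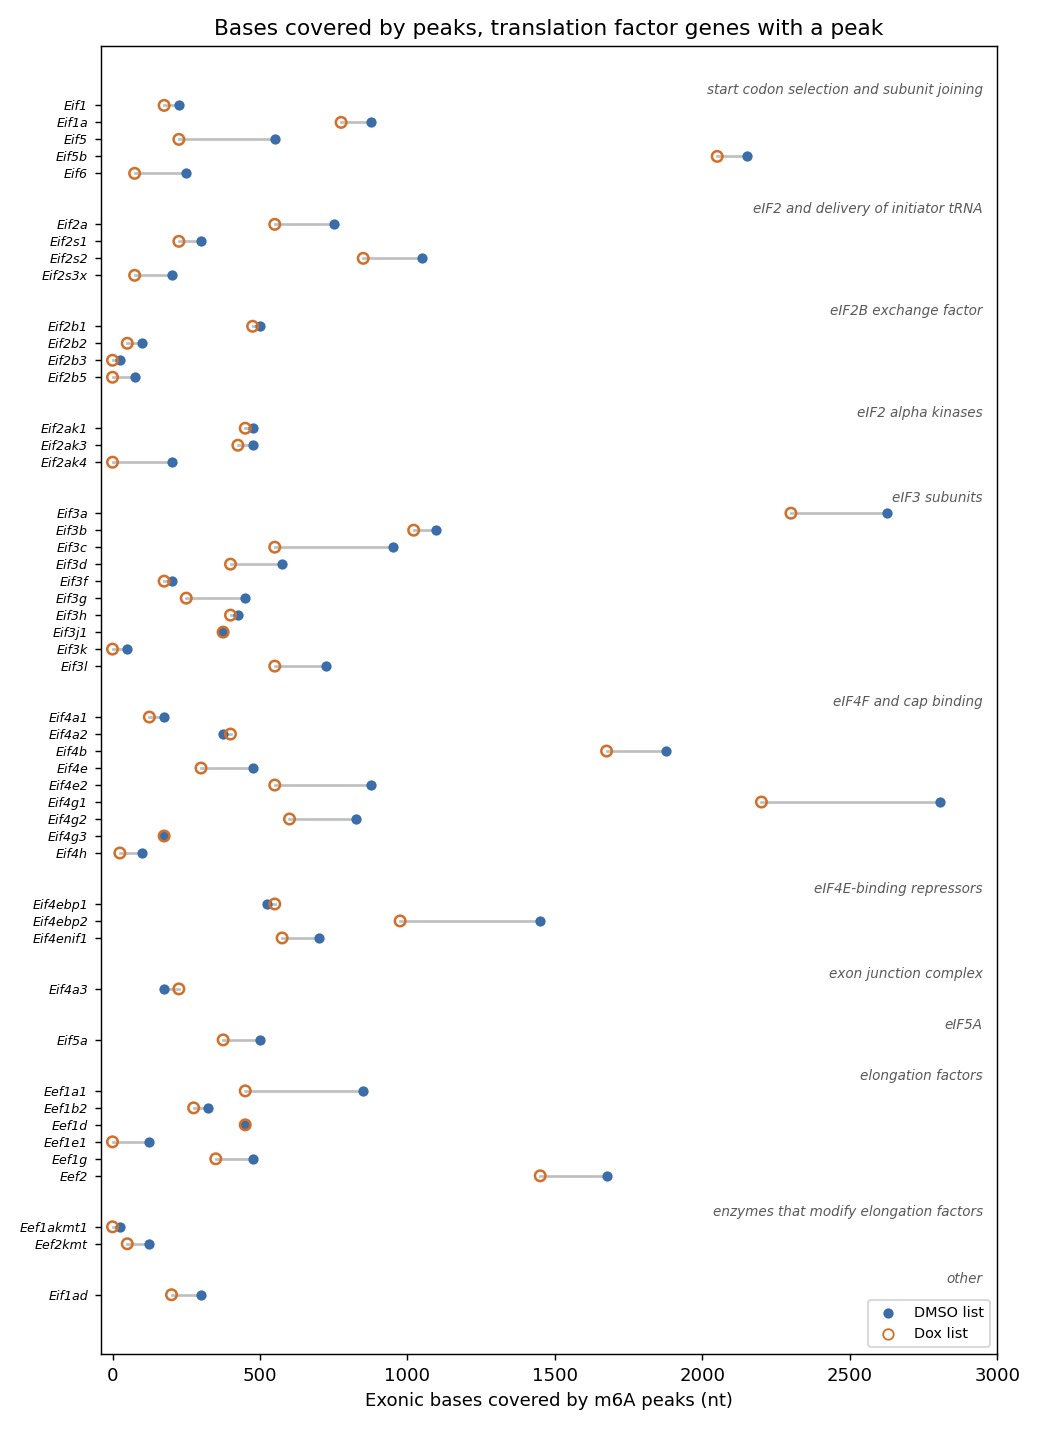
Exonic bases covered by m6A peaks (nt, horizontal axis) for each of the 49 translation factor genes with a peak, grouped by function, with filled points for the DMSO list and open points for the Dox list. Eif4g1, Eif3a, Eif5b, Eif4b and Eef2 lie farthest to the right in both lists, and the open point lies to the right of the filled one only at Eif4a2, Eif4a3 and Eif4ebp1.

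Among start codon selection and subunit joining factors, 5 of 7 genes carried peaks in each list, with 4050 nt covered under DMSO and 3300 nt under Dox. Eif5b, which encodes the GTPase that joins the ribosomal subunits, had most of this coverage. Its 3 DMSO peaks covered 2150 nt and its 4 Dox peaks 2050 nt, mainly as a long spliced peak of 1525 nt over 8 exon blocks in the DMSO list that was listed in the Dox list as a peak of 1400 nt and another of 50 nt. Eif5, the GTPase-activating protein for eIF2, had 4 DMSO peaks and 2 Dox peaks. Its 200-nt coding peak (chr12:111541704-111542209, plus strand, 2 exon blocks) had identical blocks in both lists, with a score of 29.0 under DMSO and 15.0 under Dox. The DMSO-only peaks of Eif5 were 1 of 100 nt in the coding sequence and 1 of 175 nt in the 3′UTR. Eif1, whose product guards start codon choice, had 3 DMSO peaks and 1 Dox peak, and the 175-nt peak over its 5′ part (chr11:100320010-100320232, plus strand) was shared with identical blocks. Both of its DMSO-only peaks were 25 nt long.

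In the group of eIF2 and initiator tRNA delivery, all 4 genes with a peak carried it in both lists. The group had 2300 nt covered under DMSO and 1700 nt under Dox, of which Eif2a held 750 and 550 nt. Eif2s2, the beta subunit, was the most covered, with 1050 nt in 4 peaks under DMSO and 850 nt in 5 peaks under Dox. Its best-scoring peaks were both in the coding sequence. The peak at chr2:154888183-154892130 (minus strand, 2 exon blocks, 200 nt) scored 30.0 under DMSO and 17.7 under Dox, and the peak at chr2:154887683-154887807 (125 nt) scored 29.1 and 21.4. Both kept the same blocks. Of the Eif2s2 peaks, 3 of 4 and 4 of 5 had a near-identical locus on chromosome 8, so their reads could have come from either locus.

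The eIF2B and eIF2 alpha kinase genes, which control how much eIF2 is active, included Eif2b3, Eif2b5 and Eif2ak4 among the genes with a peak in the DMSO list only. So few genes cannot be set apart from the 21.5% of DMSO-only genes in general. For eIF2B, DMSO peaks lay on 4 of 5 genes and Dox peaks on 2 of 5. Eif2b3 had a single coding DMSO peak, of 25 nt and a score of 11.5. Eif2b5 had a single DMSO peak of 75 nt in the 3′UTR, with its middle 73 nt past the first base of the stop codon and a score of 11.2. Eif2b2 carried peaks in both lists, but they did not overlap. The 2 DMSO peaks of Eif2b2 covered 100 nt and its Dox peak covered 50 nt nearer the start codon, as shown among the sequences above. Among the kinases, Eif2ak4 (GCN2, activated by uncharged tRNA) had 2 DMSO peaks of 100 nt each in the coding sequence, with scores of 11.5 and 10.6, and no Dox peak. Eif2ak3 (PERK, activated by stress in the endoplasmic reticulum) had 5 DMSO peaks and 3 Dox peaks, but the covered bases differed little, at 475 and 425 nt. In Eif2ak3 2 neighbouring DMSO peaks were overlapped by 1 Dox peak of 225 nt.

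Of 14 eIF3 genes, 10 carried DMSO peaks and 9 Dox peaks, and 7471 nt were covered in the DMSO list against 6021 nt in the Dox list. Eif3a, the largest eIF3 scaffold subunit, was the most covered gene of the Dox list, with 2300 nt in 3 peaks there and 2625 nt in 3 peaks in the DMSO list. A single peak of Eif3a over 8 exon blocks ran across the 3′ part of the coding sequence into the 3′UTR, with 1850 nt and 14 GGAC motifs under DMSO and 1825 nt and 14 GGAC motifs under Dox. Upstream of it, a 700-nt DMSO peak was overlapped by 2 Dox peaks of 175 and 300 nt. Eif3b, an RNA-binding scaffold subunit, carried 7 DMSO peaks over 1096 nt and 8 Dox peaks over 1021 nt, 1 of each being list-only.

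Eif3c and Eif3g had the widest relative differences in coverage among the eIF3 genes with peaks in both lists. Eif3c, another scaffold subunit, had 4 peaks over 950 nt under DMSO and 2 peaks over 550 nt under Dox. Its DMSO-only peaks were 3, of 125, 100 and 25 nt, all in the coding sequence. Eif3g covered 450 nt under DMSO and 250 nt under Dox, while its best-scoring 75-nt peak near the start of the coding sequence (chr9:20898365-20898439, minus strand) was the same in both lists and scored 30.8 and 32.8. Eif3k had only a DMSO peak, of 50 nt over 2 exon blocks at the end of the coding sequence, with a score of 11.96.

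The eIF4F and cap-binding genes had the most peaks of any functional group, 47 under DMSO and 37 under Dox, and all 9 genes with a DMSO peak also had a Dox peak. Eif4g1, the scaffold that joins the cap-binding protein to eIF3, carried the most peaks of all translation factor genes, 13 under DMSO and 11 under Dox, over 2805 and 2200 nt. Of its DMSO peaks 3 were list-only, each of 75 nt, and all of its Dox peaks were shared. One DMSO peak of 1250 nt over 5 exon blocks was overlapped by Dox peaks of 975 and 100 nt. A DMSO peak of 125 nt also overlapped the small nucleolar RNA gene Snord66 on the same strand, and its reads could come from either gene. The 375-nt peak across the Eif4g1 stop codon (chr16:20692285-20692659, plus strand) was the same in both lists, with scores of 13.1 and 13.7.

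Eif4b, which stimulates the helicase eIF4A, held the best-scoring peaks of the translation factors in both lists. The 400-nt peak over 5 exon blocks (chr15:102090331-102094578, plus strand) scored 94.0 under DMSO and 57.3 under Dox, and the 200-nt peak next to it (chr15:102094654-102095052, 2 exon blocks) scored 72.1 and 55.1. Both had identical blocks in the lists. Those scores were above the 99.7th percentile of each list. In all, Eif4b carried 7 DMSO peaks over 1875 nt and 6 Dox peaks over 1675 nt, and every Dox base lay within a DMSO peak. Its DMSO-only peak of 75 nt was in the 3′UTR, scored 10.8 and had a near-identical locus.

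Eif4e2 encodes a cap-binding homologue of eIF4E that represses translation, and Eif4e the cap-binding subunit of eIF4F itself. Eif4e2 carried 7 peaks in each list, over 875 nt under DMSO and 550 nt under Dox. Its 75-nt peak close to the start of the gene (chr1:87213964-87214038, plus strand) scored 51.0 and 26.2 with identical blocks. In Eif4e2 5 peaks of each list had their middle base outside the main transcript, in exons of other annotated transcripts. Eif4e had 4 DMSO peaks and 2 Dox peaks, over 475 and 300 nt, and a DMSO-only peak of 125 nt lay in its coding sequence. Eif4g2, a relative of Eif4g1 that acts without the cap-binding protein, had 7 and 5 peaks. Its 275-nt coding peak in the Dox list (chr7:111075155-111075669, minus strand, 3 exon blocks) scored 26.6, while the DMSO peak of 325 nt over the same exons scored 12.1.

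The eIF4E-binding repressors compete with the scaffold for the cap-binding protein. Eif4ebp2 had 6 peaks in each list, over 1450 nt under DMSO and 975 nt under Dox, and each DMSO peak had a Dox partner. The middle of 5 of the 6 peaks lay in the long 3′UTR, from 59 to 4921 nt past the first base of the stop codon under DMSO. One of them was 250 nt long under DMSO and 25 nt long under Dox. Eif4enif1, which carries eIF4E into the nucleus, had 7 DMSO peaks and 4 Dox peaks, and its 3 DMSO-only peaks were of 25, 25 and 50 nt. Eif4ebp1 had 1 long peak in each list, of 525 and 550 nt, reaching from the coding sequence into the 3′UTR.

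**Figure D2:**
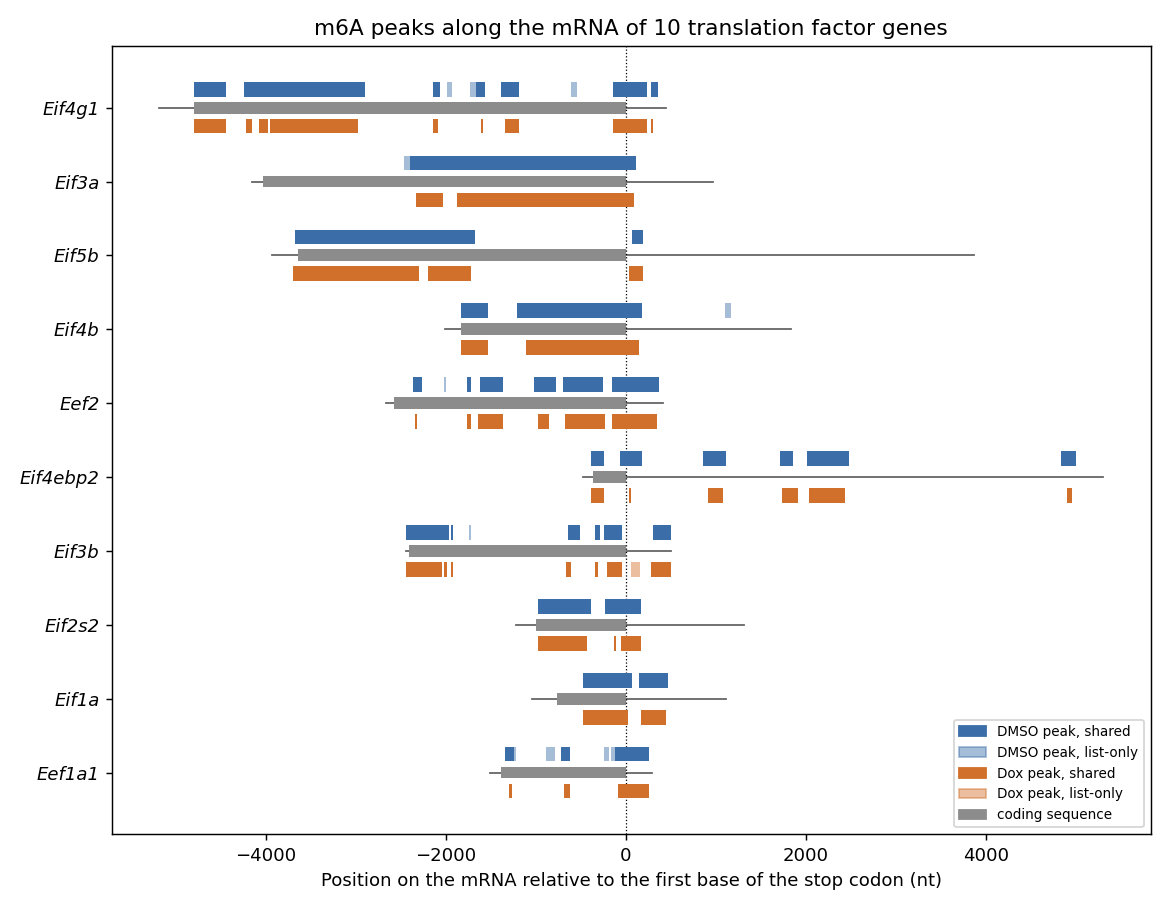
Positions of peaks on the main transcript of the 9 translation factor genes with the most covered bases and of Eef1a1, in nt from the first base of the stop codon (horizontal axis). Thick grey bars are the coding sequence and thin lines the UTRs, blue bars above are DMSO peaks, orange bars below are Dox peaks, and pale bars are list-only peaks. Peaks of the lists lie over the same stretches in Eif4g1, Eif3a, Eif5b and Eif4b, and Eef1a1 has 4 pale DMSO bars.

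Of 7 elongation factor genes 6 carried DMSO peaks and 5 Dox peaks, covering 3900 and 2975 nt. Eef1a1 encodes the abundant GTPase that delivers aminoacyl-tRNA, and carried 7 peaks over 850 nt under DMSO and 3 peaks over 450 nt under Dox. The shared peaks lay at the stop codon and 3′UTR (400 nt under DMSO, score 19.6, and 350 nt under Dox, score 28.6), in the middle of the coding sequence (100 nt, score 33.2, and 75 nt, score 12.2) and near the start codon (125 nt, score 16.4, and 25 nt, score 26.2). Among these 3 pairs the score was higher in the Dox list at the first and the last and higher in the DMSO list at the one between them. The 4 DMSO-only peaks lay in the coding sequence and were 25, 50, 50 and 100 nt long with scores of 36.7, 24.4, 17.1 and 12.6. The 25-nt peak (chr9:78480402-78480426, minus strand) was the best-scoring list-only peak of all translation factors. The peaks at the stop codon and 3′UTR also overlapped an annotated miRNA gene, Gm26377, on the same strand. Near-identical loci were found for 3 of 7 DMSO peaks and 2 of 3 Dox peaks of Eef1a1, up to 4 loci for 1 peak. At a looser cut of 95% identity over 50% of the peak, every Eef1a1 peak but the 25-nt DMSO-only peak had such a locus. Up to 12 loci were then found for 1 peak. How the authors treated reads that align to several places is not given in the sources used here.

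Eef2, the translocase, carried 9 DMSO peaks over 1675 nt and 8 Dox peaks over 1450 nt, so that 50.4% and 43.6% of its annotated exonic bases were covered. This gene held the one-to-one pairs of peaks whose scores differed by the highest factors, in opposite directions. The peak over the stop codon and 3′UTR (chr10:81181925-81182449, plus strand, 525 nt under DMSO and 500 nt under Dox) scored 11.5 under DMSO, the 44.5th percentile of that list, and 32.6 under Dox, the 99.2nd percentile. A peak at chr10:81180361-81180435, with its middle in the coding sequence, scored 30.7 with 75 nt under DMSO, the 99.0th percentile. Its Dox partner (chr10:81180411-81180435) scored 10.2 with 25 nt, the 4.02nd percentile, and had its middle base outside the main transcript. Near-identical loci were found for 2 of 9 DMSO and 2 of 8 Dox peaks of Eef2, none of them in the pairs above. At the looser cut of 95% identity over 50% of the peak, this DMSO peak had 2 other loci. Both peaks at the stop codon had 1, so reads of these peaks could come from elsewhere.

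The other subunits of the eEF1 complex, which recharges eEF1A with GTP, carried 2 to 5 peaks per list where they had any. Eef1g carried a 150-nt peak across its stop codon (chr19:8978030-8978179, plus strand) that had the same blocks in both lists and scored 39.1 and 42.0, with 3 near-identical loci. In Eef1b2 a DMSO peak of 50 nt with a score of 21.3 contained a 25-nt Dox peak scoring 30.7, while its 275-nt DMSO peak scored 28.9 and the 250-nt Dox partner 13.0. Eef1d had 3 DMSO and 5 Dox peaks at an equal coverage of 450 nt, and its 2 Dox-only peaks were of 25 nt each. Eef1e1, which encodes a multi-tRNA synthetase component, had 3 DMSO peaks of 25 to 50 nt with scores of 10.5, 10.5 and 10.9 and no Dox peak. Among the enzymes that methylate or phosphorylate elongation factors, only Eef1akmt1 and Eef2kmt of 6 genes had a peak. Eef1akmt1 had a 25-nt DMSO peak with a score of 10.4 and no Dox peak, and Eef2kmt had a shared peak of 125 nt under DMSO and 50 nt under Dox.

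The 6 genes with a peak in the DMSO list only carried 1 to 3 peaks each, and none of these peaks was longer than 100 nt. Their covered bases ranged from 25 nt (Eif2b3, Eef1akmt1) to 200 nt (Eif2ak4), and their best scores from 10.4 (Eef1akmt1) to 11.96 (Eif3k), against a minimum of 10 for entry to the lists. The score of Eif3k was above the DMSO median of 11.6, and the best scores of the other DMSO-only genes were below it. Absence of a Dox peak and a Dox peak just below the minimum cannot be told apart.

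The share of DMSO peaks with a Dox partner was above the share over all peaks. Of the DMSO peaks 120 of 168 were overlapped by a Dox peak (71.4%, interval 64.2 to 77.7), against 57.0% of all DMSO peaks and 55.8% of all DMSO peaks at the same lengths. With lists of equal size it was 78.4% (interval 70.9 to 84.4) against 71.1%, and with scores at or above the DMSO median 80.8% (interval 72.9 to 86.9) against 75.8%, so under those settings the share over all peaks lay within the interval. Of the Dox peaks 126 of 132 were overlapped by a DMSO peak (95.5%, interval 90.4 to 97.9), against 92.7% of all Dox peaks. The DMSO-only peaks numbered 48 and had a median length of 50 nt, a median score of 11.5 and a GGAC motif in 27.1% (interval 16.6 to 41.0). The 120 shared DMSO peaks had a median length of 175 nt, a median score of 12.9 and a GGAC motif in 60.0% (interval 51.1 to 68.3). Shorter peaks offer fewer positions for a motif, and the shares were not adjusted for that difference in length. The 6 Dox-only peaks lay on Eef1d (2 peaks), Eif2b2, Eif3b, Eif3f and Eif3j1, were 25 to 100 nt long and scored at most 12.2.

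A total of 108 pairs joined a single DMSO peak to a single Dox peak that overlapped it and no further peak. The DMSO peak was longer in 64 pairs (59.3%, against 68.9% of all such pairs), the Dox peak in 16, and 28 pairs had identical blocks (25.9%, against 17.5% of all such pairs). The median lengths were 150 nt under DMSO and 125 nt under Dox, against 200 and 150 nt over all such pairs. The shares of pairs were not adjusted for this difference in length. The lists differ in length, and percentiles refer to each list alone. The percentile was higher in the Dox list for 48 pairs (44.4%, against 37.9% of all pairs).

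**Figure D3:**
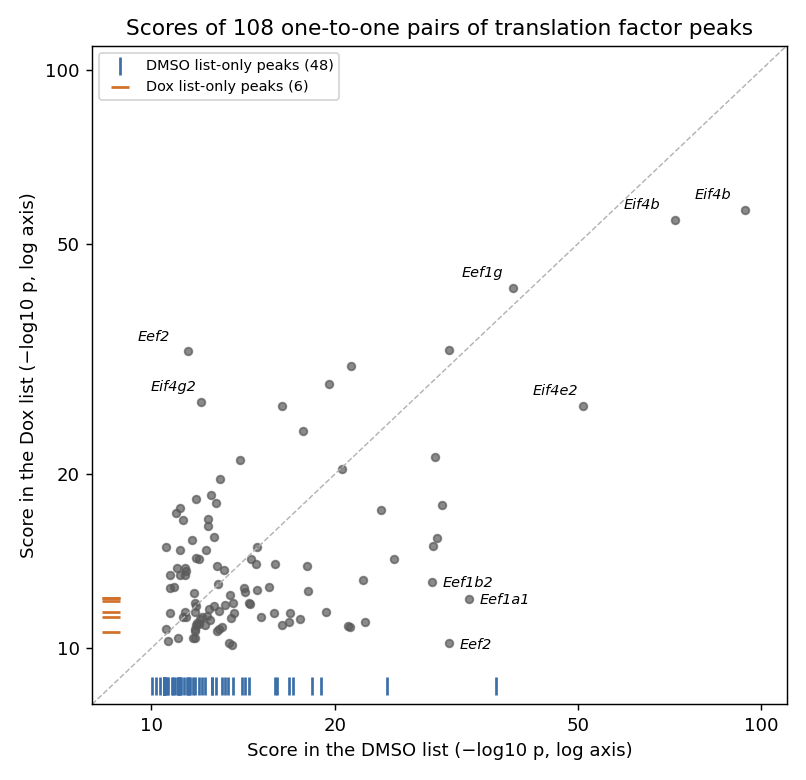
Scores (taken as −log10 p) of the 108 one-to-one pairs of translation factor peaks. The DMSO list is on the horizontal and the Dox list on the vertical log axis, and the dashed line marks equal scores. Ticks along the axes are the scores of the 48 DMSO-only and the 6 Dox-only peaks. The Eif4b pairs have the highest scores in both lists (94.0 and 57.3, 72.1 and 55.1), and the Eef2 pairs lie on opposite sides of the line (11.5 and 32.6, 30.7 and 10.2).

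The translation factor peaks scored higher than the peaks of the lists as a whole. The part of mRNA level in this difference was not tested. They had a median of 12.6 under DMSO and 12.4 under Dox, against 11.6 and 11.5 over all peaks. A score of 20 or more was reached by 13.7% of them under DMSO and 12.1% under Dox, against 3.33% and 2.71% of all peaks. The median peak length was 125 nt in both lists, as it was over all peaks. Spliced peaks, those with more than 1 exon block, made up 44.6% of the DMSO peaks (interval 37.3 to 52.2) and 39.4% of the Dox peaks (interval 31.5 to 47.9), against 26.4% and 21.8% of all peaks.

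The positions of translation factor peaks along the mRNA were close to those of all peaks, whose shares lay within the intervals. The middle base of a peak lay on the main transcript for 157 DMSO and 121 Dox peaks. Of these, 74.5% (interval 67.2 to 80.7) and 71.1% (62.4 to 78.4) were in the coding sequence, 22.9% and 25.6% in the 3′UTR and 2.55% and 3.31% in the 5′UTR. The corresponding shares over all peaks were 72.2% and 71.3% in the coding sequence, 24.4% and 24.8% in the 3′UTR and 3.44% and 3.87% in the 5′UTR. Within 200 nt of the first base of the stop codon lay 34 of 157 DMSO peaks (21.7%, interval 15.9 to 28.7) and 29 of 121 Dox peaks (24.0%, interval 17.2 to 32.3), against 22.9% and 25.2% of all peaks.

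The motif GGAC was present on the mRNA strand in 85 of 168 DMSO peaks (50.6%, interval 43.1 to 58.1) and 68 of 132 Dox peaks (51.5%, interval 43.1 to 59.9). Over all peaks at the same lengths the shares were 53.4% and 54.7%, within the intervals. The reverse complement GTCC, which is the same motif on the other strand, was found in 35.1% and 31.1% of the peaks, against 35.3% and 35.6% of all peaks at the same lengths. A match describes the letters in a window and does not mark a methylated base.

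**Figure D4:**
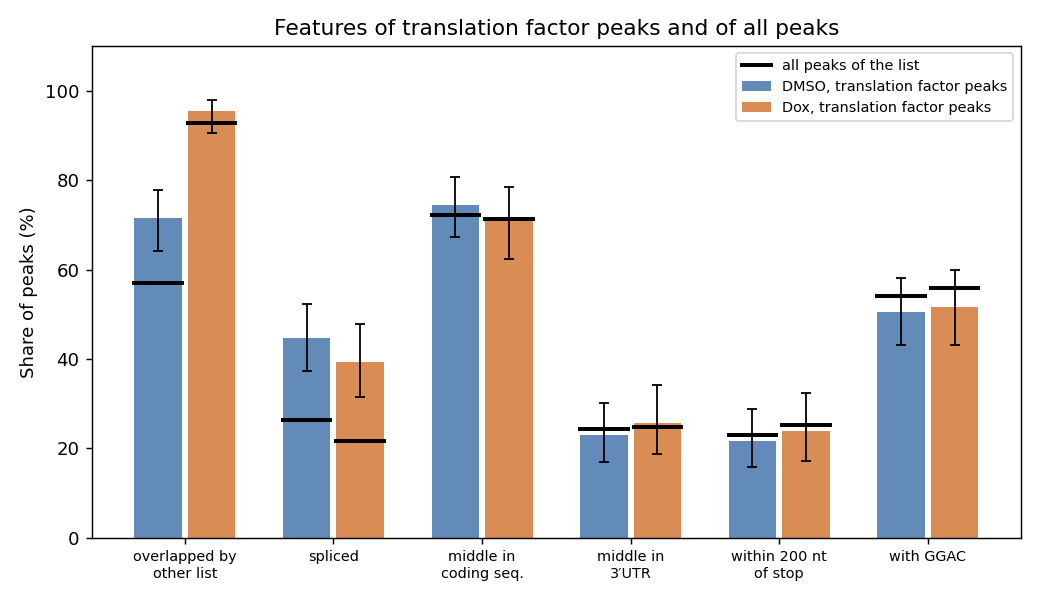
Share of translation factor peaks (%, vertical axis) that overlapped the other list, were spliced, had their middle base in the coding sequence, in the 3′UTR or within 200 nt of the stop codon, or held GGAC, for the DMSO list in blue and the Dox list in orange. Error bars are 95% Wilson intervals and black lines the shares over all peaks of the list, which lie outside the error bars for spliced peaks in both lists (44.6% against 26.4%, 39.4% against 21.8%) and for overlap in the DMSO list (71.4% against 57.0%).

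Many translation factor genes have processed copies in the genome. A near-identical locus was found for 26 of 168 DMSO peaks (15.5%, interval 10.8 to 21.7) and 20 of 132 Dox peaks (15.2%, interval 10.03 to 22.2), on 17 genes. Of the 39 such loci of DMSO peaks 27 lay in annotated pseudogenes, 2 in other genes and 10 outside annotated exons. Without these peaks, the number of genes with a peak was 45 under DMSO and 40 under Dox.

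A further list took in translation genes outside the Eif and Eef names. It covered signalling by mTORC1, poly(A)-binding proteins, helicases and recycling, release and rescue factors, and the integrated stress response. It also covered genes for selenocysteine, hypusine and diphthamide, mitochondrial factors and the nuclear cap-binding complex. The list held 46 annotated genes. DMSO peaks lay on 37 of them (80.4%, against 27.5% of all protein-coding genes) and Dox peaks on 29 (63.0%, against 22.1%). The peaks numbered 106 and 75, a ratio of 1.41 beside 1.45 over all peaks. Peaks in the DMSO list only were found on 9 genes (23.7% of those with any peak, near the 21.5% over all genes), namely Pdcd4, which inhibits eIF4A, the recycling factor gene Abce1, the stress-response gene Ddit3, the selenocysteine elongation factor gene Eefsec, the diphthamide synthesis gene Dph2, the mitochondrial factor genes Tufm and Mtif2, and both nuclear cap-binding genes, Ncbp1 and Ncbp2. Only Tsfm, a mitochondrial elongation factor gene, had a peak in the Dox list only, of 25 nt. Of the 28 genes with peaks in both lists, 24 had more bases covered under DMSO (85.7%, the same as over all genes). More bases were covered under Dox on 3 of the 28, beside 8.08% over all genes with peaks in both lists. The release and rescue factors carried peaks in both lists on 5 of 5 genes. The same held for 28 of the 46 genes of the list and 4730 of 22028 protein-coding genes. So small a group cannot be set apart from the rest of the list.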

How the data were processed

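MeRIP-seq libraries of poly(A) RNA from DMSO- and Dox-treated ESCs (2 IP and 2 input libraries per treatment) were processed by the authors. Reads were filtered with fastp (0.19.4), aligned to mm10 with HISAT2 (2.2.1), and peaks were called with exomePeak2. Its version, settings and handling of replicates are not given in the sources used here. The deposited lists hold 1 list per treatment with a value per peak, taken here to be a −log10 p-value of the authors (the score) since no value was below 10. Whether it was adjusted is not stated.

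Peaks were joined to GENCODE vM21 exons on the same strand with Python 3.11.15, and all 416 inner block edges of the translation factor peaks lay at annotated exon edges. The peaks cover exons of any annotated transcript, and 94.3% of the DMSO and 94.9% of the Dox bases lay on the main transcript. The search for near-identical loci used blastn 2.17.0. Peak joins were tested on simulated data. The genes, groups and lists were chosen with earlier results of these data known. A list gene, Gcn1, has no protein-coding entry under that symbol in the annotation. Genes described singly were Eef1a1, the 8 genes with most covered bases in each list, those with a peak in 1 list only, those with the 8 best-scoring peaks of each list and those whose peak number differed by 2 or more. Eif4ebp1, Eif4a2, Eif4a3, Eif4g3, Eif3j1, Eif3f, Eif2b2, Eef2kmt, Eif3l and Eif4h were named by the rule for sequences or, outside the rule, after their counts were seen. Alternative settings are in the closing section.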

Additional observations from a re-analysis of the deposited data

How the results depend on the processing

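Of 45 alternative values for 10 results, 33 stayed within the counting error or within 1.5 times the count. The ratio of bases has no interval of its own and was judged by the interval of the peak numbers. The tally is no measure of robustness. Other stop windows and the longer motif measure different quantities, while ignoring the strand or using coding transcripts only left the gene counts unchanged. The number of genes with a peak ranged from 40 to 49 (DMSO) and from 31 to 43 (Dox), the lowest when peaks with a locus of 95% identity over 50% of the peak were left out, an alternative chosen after seeing the data. With lists of equal size it was 46 and 43. The ratio of peak numbers ranged from 1.05 (equal list sizes) to 1.48 (scores at or above the DMSO median of 11.6). All peaks were equal in number by construction at the first setting, and numbered 9448 (DMSO) and 5921 (Dox) at the second. The ratio of bases ranged from 1.20 to 1.46 under the same settings.

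The share of DMSO peaks overlapped moved to 62.5% when 50% of the peak was required (47.4% of all peaks), 59.5% with 50% of both peaks (42.5%), 80.8% with scores at or above the DMSO median (75.8%) and 78.4% with equal list sizes (71.1%). The share of Dox peaks overlapped moved to 75.8% with 50% of both peaks (61.8%) and 87.9% with equal list sizes (81.5%). The share at the stop codon was 14.6% (DMSO) and 14.9% (Dox) in a window of 100 nt and 33.8% and 36.4% in a window of 400 nt, against 14.1%, 15.7%, 35.2% and 38.0% of all peaks. The longer motif GGACT was held by 23.8% and 24.2% of the peaks, against 23.6% and 24.7% of all peaks.

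No paired analysis was possible because the deposited lists combine the replicates of each treatment, and no replicate was left out for the same reason. Read depth was not analysed here.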

Other observations

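Middle bases outside the main transcript were found for 11 translation factor peaks in each list, and 5 in each list were on Eif4e2. Only 98 of 168 DMSO peaks and 83 of 132 Dox peaks lay wholly on the main transcript of their gene.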
